A study of Mus musculus with 8 samples.

Results

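The zinc finger transcription factor transcripts described here are 31 rows, from 24 loci, of a deposited table of 1679 transcripts from mouse hippocampus. A row was taken when its symbol begins with Zfp and a digit, Zbtb, Zkscan, Zscan, Zfhx, Zeb and a digit, or Klf and a digit, which gave 30 rows. A further row, the unnamed merged model MERGE.20971.11, was taken because it shares its locus with Zfp638. By family there were 27 transcripts at Zfp loci with that model included, 2 of Zfhx4, 1 of Zscan29 and 1 of Klf10, and 0 of Zbtb, Zkscan or Zeb genes.

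The hippocampi came from C57BL/6 mice aged 8 weeks, and the table holds 4 libraries of wild-type controls and 4 of Jade2 knockouts. The sources used here do not give how the Jade2 allele was made, whether it acts in the whole body, or the sex of the mice. The labels do not say whether each library is a different mouse, so the spread and the p-values below measure these samples only and may be technical. The annotated Jade2 transcript ENSMUST00000109091 was listed at 0 in all 4 knockout libraries and between 1.41 and 5.05 FPKM (fragments scaled by transcript length and library total) in the controls. Of 55 marker genes of 11 cell types 5 had a row, and none of these was a neuronal marker, so the hippocampal identity of the libraries was not checked here.

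Classical zinc finger proteins bind DNA through repeated small domains in which cysteines and histidines hold a zinc ion. Many Zfp genes also encode a KRAB domain, which recruits the corepressor Trim28 and with it histone methyltransferases and deacetylases, while SCAN and BTB domains mediate pairing of zinc finger proteins. Krüppel-like factors (Klf) bind GC-rich sequences, and Zfhx proteins carry homeodomains beside the zinc fingers. In the brain such factors take part in neuronal differentiation and in the silencing of transposons.

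Every row of the table had been selected by the authors, with an unadjusted p under 0.05 in the comparison of knockout with control. The listed rows are 1.60% of the 104721 transcripts that the authors' adjusted p-values imply were tested, and a low unadjusted p among so many tests does not establish that a transcript differs. The values below therefore describe the selected transcripts and are no new test of them. The selection did not use the sum of isoforms at a locus or the structure of the transcripts, although the sums are made of selected rows. In the knockout, 14 of the 31 had the higher mean and 17 the lower. Of all listed transcripts, 48.5% were higher. In these bulk libraries, fewer cells of a type and less RNA per cell cannot be told apart.

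The sequences that bear on the isoform results come from Zfp219 and Zfp638. Zfp219, a transcriptional repressor known as a partner of Sox9 in cartilage, had 4 listed isoforms. ENSMUST00000067549, higher in the knockout, and ENSMUST00000228580, lower, end at the same base, and their annotated starts lie 32 bases apart, so the same promoter sequence stands before both. They differ in an internal exon that holds the start codon. The coding sequence of ENSMUST00000228580 thus lacks the first 135 bases (45 codons) of that of ENSMUST00000067549 and is identical after them. These 138 bases are shown with both start codons in capitals: the first is that of ENSMUST00000067549 and the last that of ENSMUST00000228580 (GENCODE M21 transcript sequence, GRCm38, chromosome 14, minus strand, between 52009531 and 52009975, spliced).
Zfp219 coding start: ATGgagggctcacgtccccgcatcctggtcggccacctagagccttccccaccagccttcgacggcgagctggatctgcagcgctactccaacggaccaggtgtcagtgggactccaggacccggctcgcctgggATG

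The promoter window of Zfp219 nearest to both starts, and that of Zfp638, are shown because isoforms in opposite directions begin within each. The windows are RefSeq's for GRCm38.p6, from 250 bases before to 50 after the annotated start. Capitals mark the GC box GGGCGG, or CCGCCC on the other strand, a motif bound by Sp and Klf factors. The Zfp219 window (chr14:52020684-52020983, minus strand) holds 0 matches and the Zfp638 window (chr6:83914103-83914402, plus strand) holds 1.
Zfp219 promoter: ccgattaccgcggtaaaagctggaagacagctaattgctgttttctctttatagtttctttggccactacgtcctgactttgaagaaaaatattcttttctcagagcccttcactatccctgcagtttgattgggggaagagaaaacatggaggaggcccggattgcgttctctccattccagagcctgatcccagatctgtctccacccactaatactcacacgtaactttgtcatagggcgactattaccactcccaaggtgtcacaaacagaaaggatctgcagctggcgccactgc
Zfp638 promoter: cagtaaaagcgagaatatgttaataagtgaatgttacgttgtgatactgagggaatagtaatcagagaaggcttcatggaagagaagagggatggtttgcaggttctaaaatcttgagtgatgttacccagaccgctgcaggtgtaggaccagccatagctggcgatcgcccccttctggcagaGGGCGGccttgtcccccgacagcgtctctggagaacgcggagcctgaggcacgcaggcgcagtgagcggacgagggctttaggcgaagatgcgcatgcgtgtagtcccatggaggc

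Across the RefSeq table, 35.7% of 32851 windows hold a GC box in either orientation. Of the 24 zinc finger genes 21 matched a window by symbol, and 10 of their 25 windows (40%) hold one. A match is a description of letters and not a binding site. Of the 31 transcripts, 15 begin within 50 bases of a RefSeq start, and 27 have a window of their gene to compare with.

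The question of the first comparison was how isoforms of one zinc finger gene compare between knockout and control. At 4 loci, Zfhx4, Zfp639, Zfp638 and Zfp219, the table held isoforms in both directions, and the sum of the listed isoforms did not pass at any of them. These loci were chosen because their selected isoforms go in opposite directions, so the parts offset each other in the sum by that choice. A sum that does not pass therefore does not show a steady locus total. Zfhx4 encodes a very large zinc finger and homeodomain protein of the developing nervous system. Its isoform ENSMUST00000176383 (mm10, chromosome 3, 5241672 to 5415857, plus strand, protein coding, 10 exons) stood at 1.36, 2.27, 2.04 and 2.26 FPKM in control replicates 1 to 4, and the 4 knockout libraries all had a listed 0. The isoform ENSMUST00000026284 (5218554 to 5415855, 11 exons) showed the reverse. Knockout replicates 1 to 4 held 0.161, 2.34, 2.48 and 2.24 FPKM, against 0.00588, 0.0467, 0 and 0.0125 FPKM in the controls. Neither isoform's groups overlapped, and knockout replicate 1 was far below the other knockouts for the second isoform.

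The 2 Zfhx4 isoforms share 13498 bases, which leaves ENSMUST00000026284 with 376 bases of its own and ENSMUST00000176383 with 2. Their coding sequences of 10743 bases are identical, so the pair differs in noncoding sequence, chiefly the upstream exon of ENSMUST00000026284. Summed over both, the Zfhx4 locus had a knockout mean of 1.81 ± 1.10 FPKM against a control mean of 2.001 ± 0.4414 FPKM (SD, n = 4 each). On the log2(FPKM + 0.5) scale the difference of the sums, knockout minus control, was -0.32 (SE 0.546, two-sided exact permutation p = 0.914). The direction of this sum rests on knockout replicate 1, at 0.161 FPKM, and without it the difference is 0.21. The share of the locus sum taken by ENSMUST00000026284 was 100% in each knockout library and between 0 and 2.01% in the controls. Reads within shared bases do not tell isoforms apart, so such shares and the separate levels are estimates of unknown error. The same applies at Zfp639 and Zfp219, where a listed isoform lies wholly within the bases of another.

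The authors' deposited table gives 1 zinc finger transcript, Zfhx4 ENSMUST00000176383, an adjusted p below 0.05 (0.000359), as it does 0.893% of all listed transcripts. Its mean over the 8 libraries, 0.992 FPKM, was just below the minimum of 1 FPKM set for the test with limma. With no minimum it passed limma, with an adjusted p of 0.0393, as did 0.417% of all listed transcripts. It also met the minimum when any 1 knockout library was left out, and then did not pass, with limma adjusted p-values of 0.690, 0.644, 1 and 1 without knockout replicates 1, 2, 3 and 4. The other Zfhx4 isoform has an adjusted p of 1 in limma with no minimum and of 0.8885 by the authors' deposited table. All these limma fits took their variances from rows selected on this same contrast, so they are no independent test of the authors' call.

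Zfp639 encodes a zinc finger protein and had 1 isoform in each direction. ENSMUST00000029203 (chromosome 3, 32515295 to 32520685, plus strand, protein coding) stood at 9.81, 9.56, 7.22 and 3.37 FPKM in control replicates 1 to 4 and at 2.35, 3.09, 2.93 and 2.91 FPKM across knockout replicates 1 to 4. ENSMUST00000193287 (32510259 to 32520833) stood at 0, 0.0793, 0.0236 and 0.0499 FPKM in the controls and at 0.489, 0.521, 0.471 and 0.580 FPKM in the knockouts. The groups overlapped for neither isoform, although control replicate 4 came close to the knockouts for the first.

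All 1458 bases of Zfp639 ENSMUST00000029203, whose model begins at the start codon, lie within the 2211 bases of ENSMUST00000193287, and both encode the same 1455 bases. The 753 bases held by the longer model alone are noncoding. The locus sum, most of it ENSMUST00000029203, had a knockout mean of 3.34 ± 0.344 FPKM against a control mean of 7.53 ± 2.98 FPKM (SD, n = 4 each). Its log2 difference was -0.97 (SE 0.333, two-sided exact permutation p = 0.0857), and control replicate 4, at 3.42 FPKM, lay within the range of the knockouts. Without control replicate 4 the difference is -1.285 with an unadjusted exact permutation p of 0.0286, the smallest that 7 libraries allow, and leaving out each other library gave p between 0.0857 and 0.114. Isoform ENSMUST00000193287 made up 13.8% to 17.2% of the sum in the knockouts and 0 to 1.46% in the controls.

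Zfp219 (chromosome 14, minus strand) had 2 isoforms in each direction. ENSMUST00000226522 (52006077 to 52014582) was its most abundant, at 1.80, 0.965, 2.07 and 9.45 FPKM across knockout replicates 1 to 4 and 2.13, 0.212, 0 and 0 FPKM in control replicates 1 to 4. ENSMUST00000067549 (52006082 to 52020733) stood at 0.0520, 0.166, 0.215 and 1.97 FPKM in the knockouts and was at 0 in 3 controls and 0.0046 FPKM in control replicate 2. Knockout replicate 4 was the highest for both, and without it the log2 difference of ENSMUST00000067549 went from 0.84 to 0.35. The 2 isoforms share an identical coding sequence of 2178 bases and differ in noncoding sequence, chiefly the first exon.

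In the other direction, Zfp219 ENSMUST00000226527 (52009274 to 52015126), a short model whose coding end is not annotated, stood at 1.82, 0.575, 2.21 and 2.93 FPKM in the controls and 0.464, 0.148, 0.626 and 0.802 FPKM in the knockouts. ENSMUST00000228580 (52006082 to 52020701), the isoform without the first 45 codons, stood at 0.0725, 1.29, 1.73 and 1.54 FPKM in the controls and at 0 in the knockouts but for 0.168 FPKM in replicate 1. The groups overlapped for both through a single control library each, replicate 2 for the first and replicate 1 for the second. All 2812 bases of ENSMUST00000228580 lie within ENSMUST00000067549.

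Summed over its 4 isoforms, Zfp219 had a knockout mean of 4.72 ± 5.04 FPKM against a control mean of 3.63 ± 1.05 FPKM (SD, n = 4 each), with a log2 difference of -0.04 (SE 0.641, two-sided exact permutation p = 1). The sign of this difference is not fixed by the data, since it ran from -0.61 without knockout replicate 4 to 0.34 without knockout replicate 2. The higher isoforms took 74.6% to 93.4% of the sum in the knockouts and 53.0%, 10.4%, 0% and 0% in control replicates 1 to 4. Control replicate 1 was thus nearer to the knockouts in its isoform mix than to the other controls. The last exon of 3 of these isoforms overlaps Arhgef40 on the opposite strand by 170 to 175 bases, and whether counting used the strand is not stated in these sources.

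Zfp638 encodes a large nuclear protein, also known as NP220, that binds nucleic acid and takes part in silencing unintegrated retroviral DNA. ENSMUST00000204202 (chromosome 6, 83914373 to 83956762, plus strand, protein coding, coding end not annotated) stood at 0.603, 0.480, 0.733 and 0.457 FPKM in the knockouts and 0.00969, 0.178, 0.126 and 0.534 FPKM in the controls. The merged model MERGE.20971.11 (83914374 to 83986617) stood at 0.195, 1.53, 0.474 and 1.45 FPKM in the controls and at 0 in 3 knockouts, but at 2.18 FPKM in knockout replicate 1, its highest value. The groups therefore overlapped for both, and without knockout replicate 1 the log2 difference of the merged model went from -0.75 to -1.36.

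The 2 Zfp638 models begin 1 base apart, and no exon structure of the merged model was used here. Their sum had a knockout mean of 1.11 ± 1.12 FPKM against a control mean of 1.12 ± 0.857 FPKM (SD, n = 4 each). Its log2 difference was -0.04 (SE 0.600, two-sided exact permutation p = 1), and its sign changed when single libraries were left out, from -0.45 without knockout replicate 1 to 0.22 without control replicate 4.

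In all, 138 loci had isoforms in both directions, and of their sums 4.35% had an exact permutation p under 0.05. That share too is shaped by the choice of loci with opposite isoforms. None of the 4 zinc finger loci was among them. Adjusted over all 138 sums by the Benjamini-Hochberg method the p-values were 0.438 for Zfp639, 0.986 for Zfhx4 and 1 for Zfp219 and Zfp638. With 4 libraries a group the smallest exact permutation p is 0.0286, and no sum of the 138 passed after adjustment. The intervals are wide: the SE of the log2 difference was between 0.333 and 0.641, so a p above the threshold does not show that the sums are equal. These sums hold listed isoforms only, while GENCODE M21 annotates 5 transcripts of Zfhx4, 9 of Zfp639, 13 of Zfp219 and 22 of Zfp638.

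**Figure D1:**
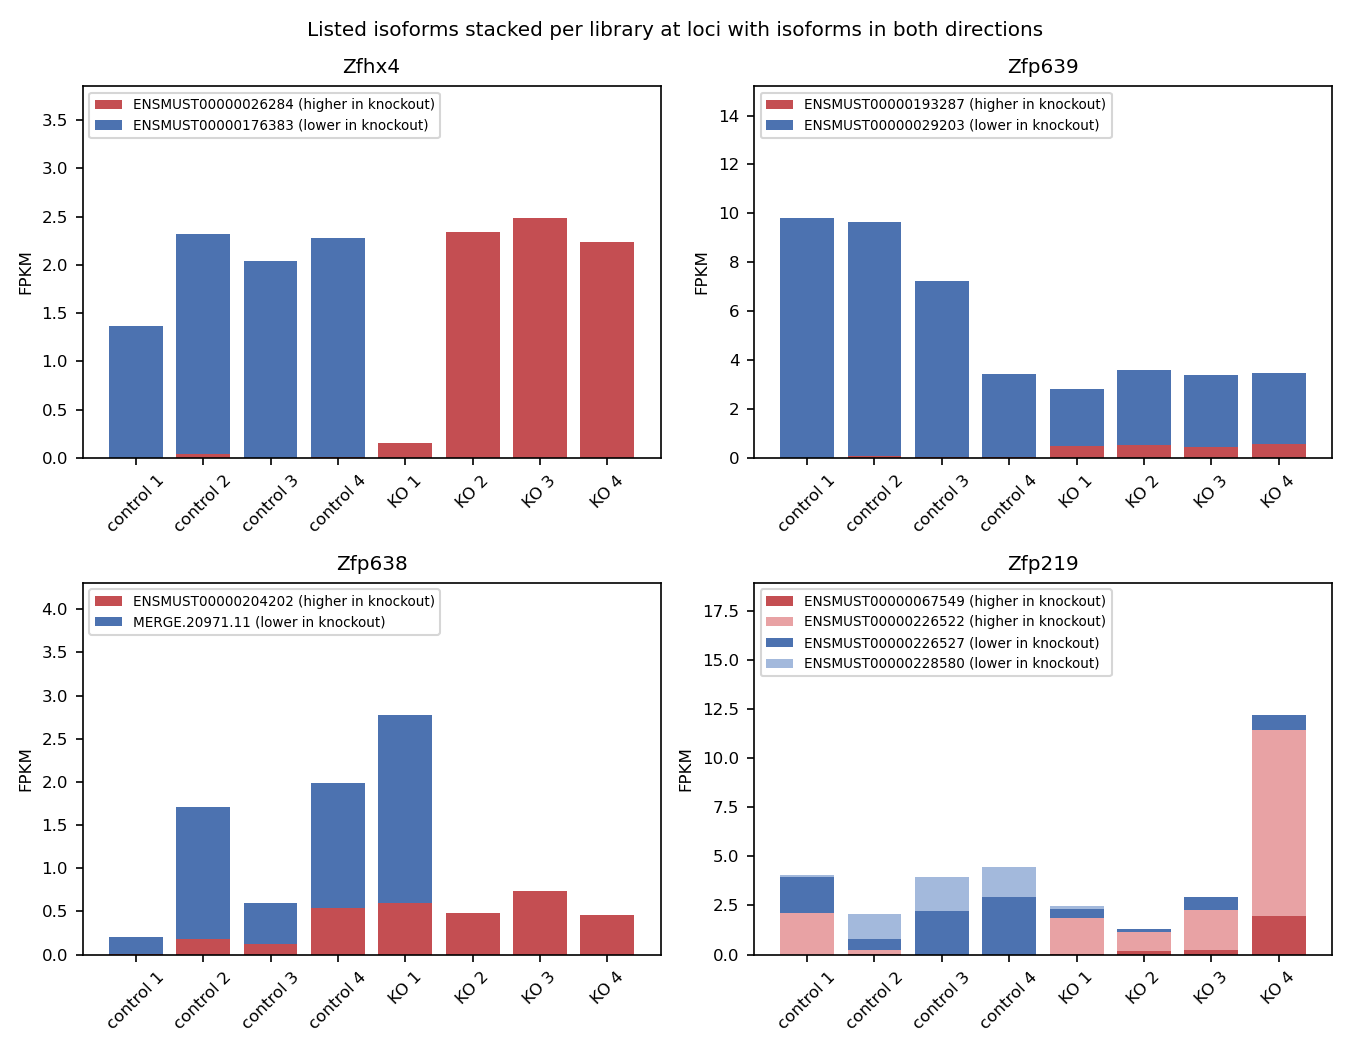
Stacked bars give the FPKM of each listed isoform in control replicates 1 to 4 and knockout (KO) replicates 1 to 4 at Zfhx4, Zfp639, Zfp638 and Zfp219, red shades for isoforms higher and blue shades for isoforms lower in the knockout. Zfhx4 goes from nearly all blue to all red at a similar height except for knockout replicate 1 (0.161 FPKM), and the Zfp219 bar of knockout replicate 4 reaches 12.2 FPKM.

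**Figure D2:**
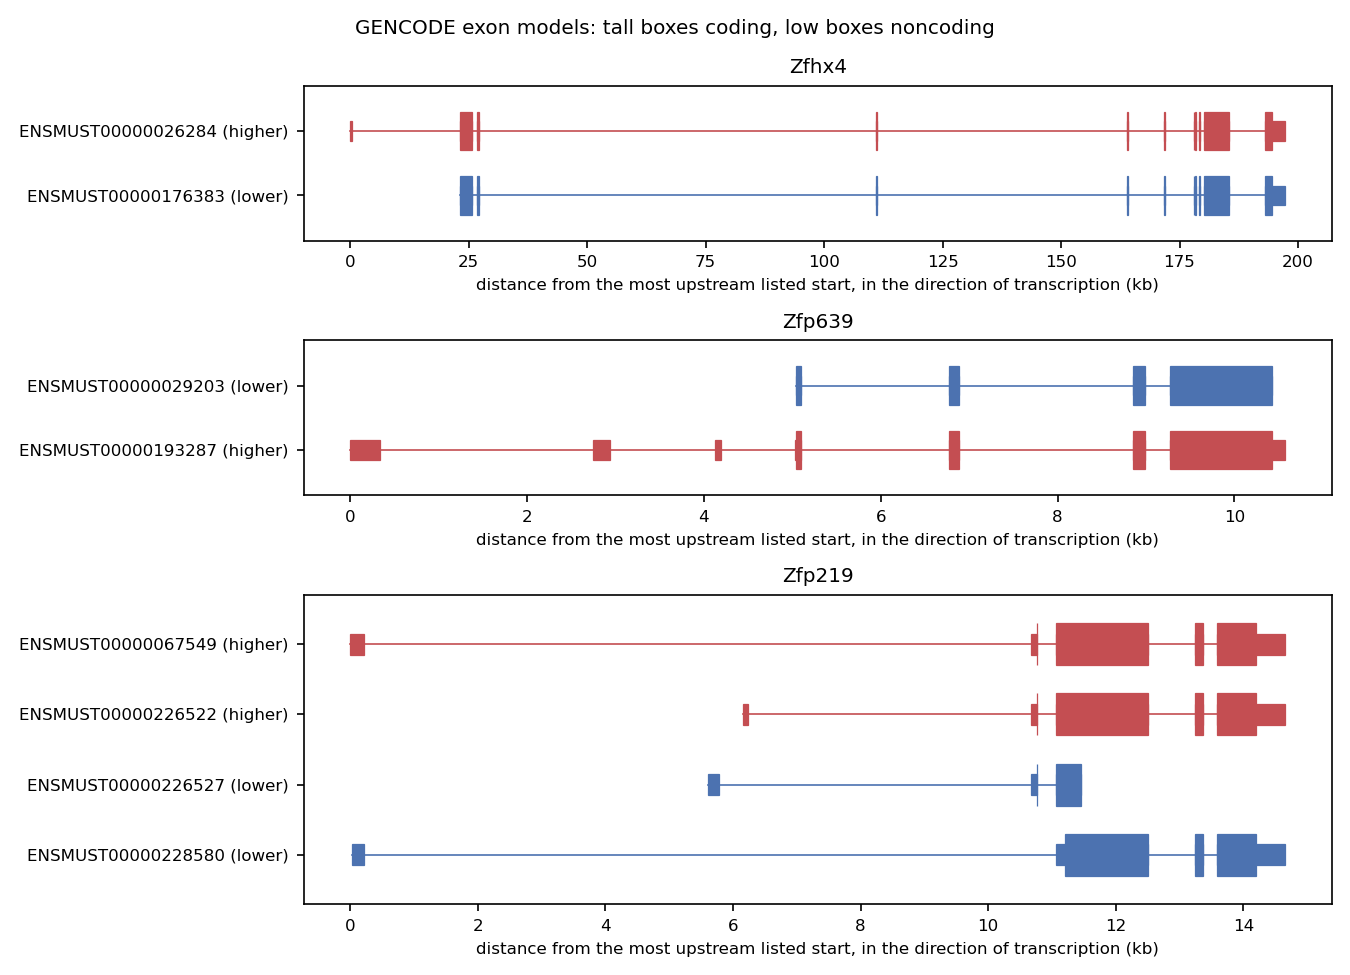
Exon models of the listed isoforms of Zfhx4, Zfp639 and Zfp219 from GENCODE M21, drawn against the distance in kilobases from the most upstream listed start, with tall boxes for coding and low boxes for noncoding exon sequence, red for higher and blue for lower in the knockout. Isoforms in opposite directions share their coding exons at Zfhx4 and Zfp639 and differ in noncoding sequence, chiefly upstream at Zfhx4 and at both ends at Zfp639.

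The second comparison takes the other transcripts that were higher in the knockout. Zfp28 was the only locus with more than 1 listed transcript all in the same direction. Its transcript ENSMUST00000207086 (chromosome 7, 6383531 to 6390742, plus strand), annotated as a target of nonsense-mediated decay, stood at 1.23, 1.41, 0.247 and 1.24 FPKM across knockout replicates 1 to 4 and 0.438, 0.0695, 0.135 and 0.163 FPKM in the controls. The short ENSMUST00000207809 (6390457 to 6393781) had a knockout mean of 0.767 ± 0.219 FPKM against a control mean of 0.212 ± 0.178 FPKM (SD, n = 4 each), with no overlap. The pair shares 104 bases, and its sum averaged 1.80 ± 0.735 FPKM against 0.413 ± 0.180 FPKM. Knockout replicate 3, the lowest knockout for both, made the groups of the first overlap.

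Zfp169, a KRAB zinc finger gene, was listed with ENSMUST00000177530 (chromosome 13, 48487659 to 48513394, minus strand). It stood at 0.321, 0.569, 0.328 and 0.935 FPKM in the knockouts and 0, 0, 0.205 and 0.236 FPKM in the controls, without overlap. Zfp12 ENSMUST00000032591, also of a KRAB gene (chromosome 5, 143235174 to 143248834, plus strand), was the most abundant transcript on the higher side. Its knockout values were 5.94, 4.52, 3.68 and 6.81 FPKM and its control values 0.984, 0.195, 4.31 and 3.03 FPKM, so control replicate 3 lay within the knockouts. Without control replicate 2 its log2 difference went from 1.45 to 0.93.

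Zfp853 ENSMUST00000212355 (chromosome 5, 143287038 to 143292864, minus strand) lies 38203 bases from Zfp12, the closest pair of loci here. It stood at 0.444, 0.454, 1.21 and 0.433 FPKM in the knockouts and 0.284, 0.258, 0 and 0 FPKM in the controls, with no overlap. Both neighbours were thus higher on average in the knockout, on opposite strands, where 48.5% of all listed transcripts were higher. This is a single pair of selected rows, so nothing is read from the shared direction. Zfp414 ENSMUST00000165504 (chromosome 17, 33629429 to 33630004, plus strand), a 2-exon model of 478 bases, stood at 2.03, 1.83, 2.09 and 4.10 FPKM in the knockouts and 2.19, 1.07, 0.520 and 0.363 FPKM in the controls. Control replicate 1 exceeded 3 of the knockouts.

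The remaining higher transcripts overlapped between the groups. Zfp40 ENSMUST00000172177 had a knockout mean of 1.73 ± 1.20 FPKM against a control mean of 0.490 ± 0.468 FPKM, and Zfp429 ENSMUST00000109732 averaged 0.813 ± 0.232 and 0.406 ± 0.569 FPKM (SD, n = 4 each). The highest value of Zfp429 was in control replicate 2, and without that library its log2 difference went from 0.71 to 1.08. Zfp697 ENSMUST00000056096 was listed at 0 in all 4 controls and in knockout replicate 2, and at 1.18, 3.03 and 0.873 FPKM in knockout replicates 1, 3 and 4. No fold is given for it, since a listed 0 can be a failed estimate.

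The third comparison takes the other transcripts that were lower in the knockout. Klf10, a factor induced early by TGF-beta, was listed with ENSMUST00000228772 (chromosome 15, 38297328 to 38299795, minus strand), a fragment of 530 coding bases with neither coding end annotated. It stood at 0.128, 0.560, 0.814 and 0.773 FPKM in control replicates 1 to 4 and 0, 0.0785, 0.0517 and 0.0510 FPKM in the knockouts, without overlap. Zfp287 ENSMUST00000005399, of a gene with SCAN and KRAB domains (chromosome 11, 62713287 to 62729093, minus strand), stood at 1.11, 1.08, 1.12 and 0.524 FPKM in the controls and 0.331, 0.413, 0.238 and 0.260 FPKM in the knockouts. Its groups did not overlap either, with control replicate 4 below the other controls. The Zfp287 knockout mean was 0.311 ± 0.0791 FPKM and the control mean 0.960 ± 0.291 FPKM (SD, n = 4 each), a control mean 3.09 times that of the knockout.

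Zscan29 ENSMUST00000146243 (chromosome 2, 121165141 to 121171125, minus strand), of a SCAN domain gene, stood at 0.940, 0.918, 1.59 and 0.920 FPKM in the controls and 0.872, 0.369, 0.417 and 0.308 FPKM in the knockouts. The gap between its groups was small, from 0.872 FPKM in knockout replicate 1 to 0.918 FPKM in control replicate 2. Its exons overlap Tubgcp4 on the opposite strand by 57 bases. Zfp467, a factor known to favour fat over bone in marrow progenitors, was listed with ENSMUST00000114560 (chromosome 6, 48436613 to 48445090, minus strand). It stood at 0.433, 0.830, 1.46 and 0.420 FPKM in the controls and 0, 0, 0.416 and 0.00414 FPKM in the knockouts, so that knockout replicate 3 was just below the lowest control. Zfp941 ENSMUST00000080651 (chromosome 7, 140807449 to 140822178, minus strand) stood at 0.463, 1.60, 0.482 and 0.294 FPKM in the controls and 0.0646, 0.204, 0.0786 and 0.00968 FPKM in the knockouts, without overlap.

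Among the more abundant transcripts on the lower side, single knockout libraries reached control levels. Zfp579 ENSMUST00000162502 (chromosome 7, 4994201 to 4996085, minus strand) stood at 5.24, 3.23, 8.08 and 1.41 FPKM in the controls and 3.28, 0.279, 0.725 and 1.09 FPKM in the knockouts. The transcript ENSMUST00000221747 (chromosome 13, 62453016 to 62466832, minus strand) carries the symbol Zfp935 in the authors' deposited table, but GENCODE M21 assigns it to Gm49359, which overlaps Zfp935 on the same strand. It stood at 2.24, 4.60, 2.62 and 2.54 FPKM in the controls and 2.29, 0.106, 0.963 and 0 FPKM in the knockouts. In both transcripts knockout replicate 1 was the library within the control range.

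Other lower transcripts also overlapped between the groups. Zfp536, an inhibitor of neuronal differentiation, was listed with ENSMUST00000176205, which had a knockout mean of 0.266 ± 0.400 FPKM against a control mean of 1.10 ± 0.778 FPKM (SD, n = 4 each). Zfp687, of a chromatin complex that also holds Zmynd8, was listed with the 3-exon model ENSMUST00000149747 at 0.385 ± 0.471 and 1.20 ± 0.657 FPKM, and Zfp37 ENSMUST00000222050, of a KRAB gene, averaged 0.553 ± 0.439 and 1.42 ± 0.557 FPKM (SD, n = 4 each). Zfp553 ENSMUST00000056232 averaged 0.996 ± 1.20 and 2.17 ± 0.683 FPKM and Zfp961 ENSMUST00000109997 averaged 0.574 ± 0.962 and 2.10 ± 1.28 FPKM (SD, n = 4 each). Zfp536, Zfp687 and Zfp553 were each at 0 in 2 knockout libraries, and Zfp961 was at 2.01 FPKM in knockout replicate 3 and at most 0.266 FPKM in the other knockouts.

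**Figure D3:**
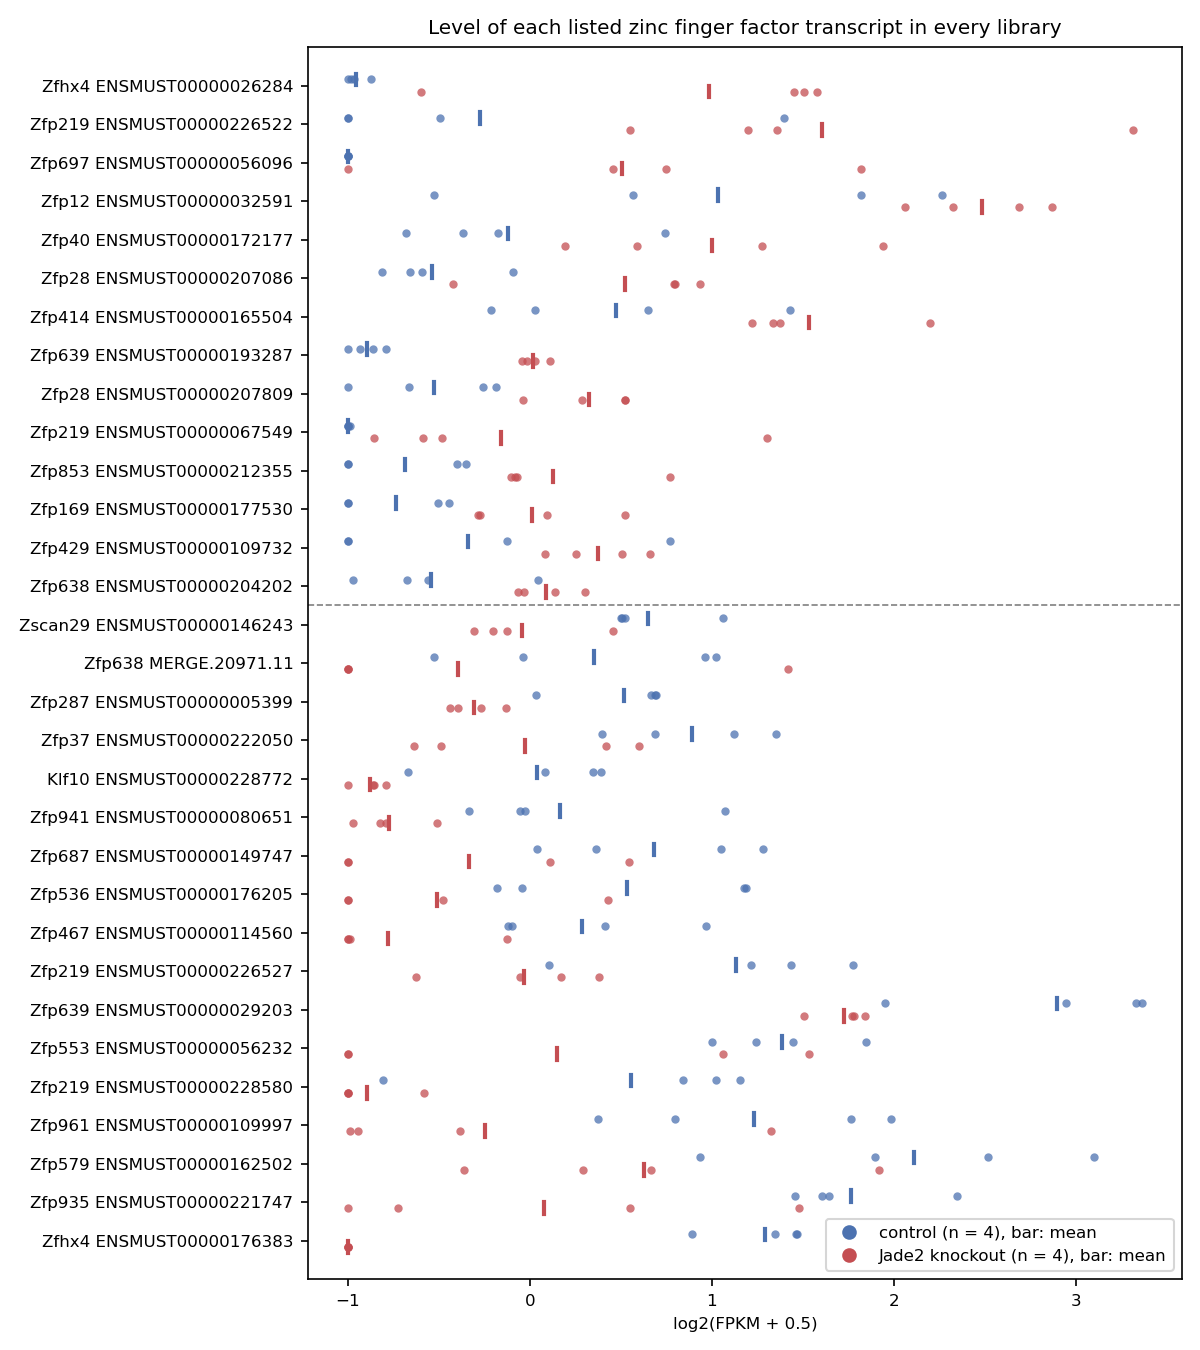
Each point is a library's level of a zinc finger transcript on the log2(FPKM + 0.5) scale, blue for control and red for Jade2 knockout (n = 4 per group), with a bar at the group mean, and transcripts above the dashed line were higher in the knockout. A value of -1 on the axis is a listed 0, and groups are apart in 13 of the 31 transcripts, beside 36.1% of all listed transcripts. Of these 13, 0 higher and 1 lower averaged 1 FPKM or more.

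Among all 31 zinc finger transcripts, 6 were higher without overlap between the groups, beside 330 of all 1679 listed transcripts (19.7%). Another 7 of the 31 were lower without overlap, beside 276 of the 1679 (16.4%). Within each direction, this is 6 of 14 higher beside 330 of 815, and 7 of 17 lower beside 276 of 864. Together these 13 make up 41.9% of the zinc finger transcripts, against 36.1% of the whole table, and since the rows were chosen on this contrast nothing is read from either share. Most of the 13 averaged under 1 FPKM. At a mean of 1 FPKM or more the groups were apart for 0 higher and 1 lower zinc finger transcripts, beside 17.3% and 14.4% of all such transcripts. Without control replicate 1 the higher count was 10, where 25.4% of all listed transcripts are then higher without overlap. Without knockout replicate 1 the lower count was 11, where 23.4% of all are then lower without overlap. The median log2 difference was 0.99 for the higher and -1.07 for the lower zinc finger transcripts, beside 1.08 and -1.03 for all listed transcripts.

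Summed over all 31, the level was 28.6, 25.3, 31.2 and 40.9 FPKM in knockout replicates 1 through 4 and 39.7, 37.1, 45.6 and 32.0 FPKM in control replicates 1 through 4, so the groups overlapped. The higher transcripts summed to between 16.2 and 31.9 FPKM in the knockouts and the lower ones to between 8.12 and 12.4 FPKM, while in the controls they summed to between 3.94 and 7.77 FPKM and between 27.2 and 39.8 FPKM.

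Zinc finger transcripts were listed at low levels. Their mean over the 8 libraries ran from 0.277 FPKM for Zfp639 ENSMUST00000193287 to 5.16 FPKM for Zfp639 ENSMUST00000029203, with a median of 0.728 FPKM, beside a median of 1.02 FPKM in the whole table. A listed 0 in at least 1 library occurred in 18 of 31 (58.1%), where 41.2% of all listed transcripts have one. A mean of at least 1 FPKM was reached by 10 of 31 (32.3%), beside 50.6% of all. No counts were given, so depth is unknown and the counting error behind these low values cannot be given.

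**Figure D4:**
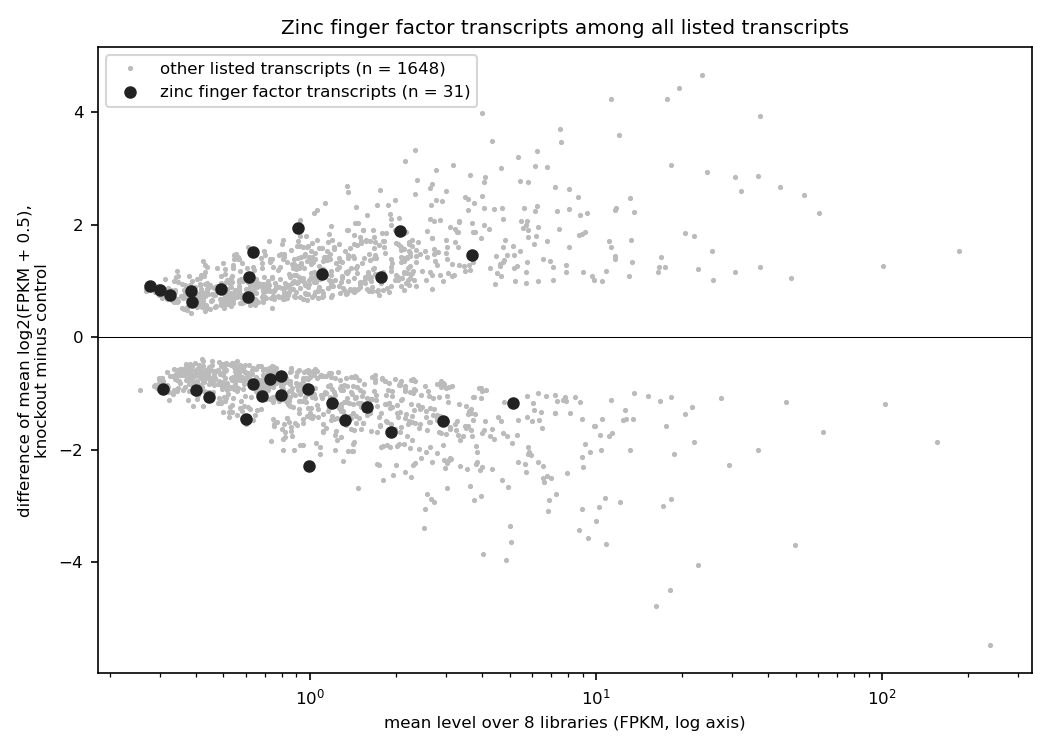
The mean level over the 8 libraries (FPKM, log axis) is plotted against the difference of mean log2(FPKM + 0.5), knockout minus control, for the 31 zinc finger transcripts (black) and the other listed transcripts (grey). The zinc finger transcripts lie at or below 5.16 FPKM, as do most of the other listed transcripts. Of all 1679, 185 average 5 FPKM or more. The median is 1.017 FPKM over all and 0.7285 FPKM for the zinc finger transcripts. The empty band around 0 is the authors' selection.

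The 10 zinc finger transcripts averaging 1 FPKM or more were fitted with limma together with all 849 such transcripts of the table. None of the 10 passed when limma p-values were adjusted over the 104721 transcripts that the authors' adjusted p-values imply (adjusted p = 1 for each), and 0% of the 849 passed. Unadjusted, 9 of the 10 had a limma p under 0.05, 4 of them higher and 5 lower in the knockout, where 70.6% of the 849 had one, a share set by the selection. The 1 above 0.05 was Zfp553 ENSMUST00000056232, with a limma log2 difference of -1.24 (SE 0.606, unadjusted p = 0.0673). Of the 31, 27 stand at an adjusted p of 0.8885 in the authors' deposited table, and beside Zfhx4 the lowest are 0.564 for Zfp639 ENSMUST00000193287, 0.776 for Zfp219 ENSMUST00000067549 and 0.850 for Zfp287.

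The transcripts were also described by structure. Of the 31, 30 have an Ensembl identifier found in GENCODE M21 with identical coordinates. By annotation 29 are protein coding, of which 13 were higher and 16 lower, and 1 is a nonsense-mediated decay target. For 8 of the 30 an end of the coding sequence is not annotated. Exon lengths ran from 478 bases for Zfp414 to 13874 bases for Zfhx4 ENSMUST00000026284. Each of the 24 genes has between 3 and 22 annotated transcripts. GENCODE M21 holds 2200 transcripts with a symbol of these families, and 29 of them (1.32%) were listed, beside 1136 of all 141767 annotated transcripts (0.801%), a description only, because which transcripts the authors tested is unknown.

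Cofactors and relatives of these factors were looked up by gene symbol. The share of all genes with a listed transcript was not computed, so the counts below are not read as high or low. Of 516 genes with a symbol of the families taken here, 24 (4.65%) had a row. Of 26 genes of the KRAB corepressor machinery, 2 had a listed transcript, 1 in each direction, and neither Trim28 nor Setdb1 was among them. Sumo2 ENSMUST00000121185, of a modifier attached to Trim28, was at 0 in all 4 knockouts and averaged 1.288 ± 1.499 FPKM in the control (SD, n = 4), where replicate 1 was at 0 as well. Uhrf1 ENSMUST00000001258, of a reader of hemimethylated DNA, had a knockout mean of 0.603 ± 0.172 FPKM against a control mean of 0.238 ± 0.214 FPKM (SD, n = 4 each), without overlap.

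Of 41 corepressor and coactivator genes that work with BTB and other zinc finger factors, 8 had a listed transcript, 5 higher and 3 lower. Of these, 0 pass an adjusted p of 0.05 in the authors' deposited table, and the lowest, for Hdac5, is 0.138. Hdac5 ENSMUST00000124077, of a class II histone deacetylase, had a knockout mean of 1.03 ± 0.254 FPKM against a control mean of 3.54 ± 0.766 FPKM (SD, n = 4 each), and the groups did not overlap. Bcorl1 ENSMUST00000156042, of a BCL6 corepressor relative, had a knockout mean of 1.04 ± 0.514 FPKM against a control mean of 0.0797 ± 0.159 FPKM (SD, n = 4 each), also without overlap. Of the 8, in all 5 were higher and 1 lower without overlap, beside 19.7% and 16.4% of all listed transcripts. By direction, 5 of these 8 and 1 of the 2 KRAB cofactors were higher in the knockout, beside 48.5% of all listed transcripts. Of 121 other zinc finger factor genes, among them Sp, Egr, Zic, Gli, Ikzf and Prdm genes, 0 had a row with their symbol. That list is not complete: a transcript of Zfat, a zinc finger factor in neither the list nor the symbol families, was in the table at a log2 difference of -1.08, and it is named after its value was seen.

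Listed markers of other cell types went in both directions beside these results, and their part was not tested. Of the 5 listed markers, 3 were higher (Acta2, Tagln and Col1a2) and 2 lower (Csf1r and Mag) in the knockout. The groups did not overlap for 3 of them, beside 36.1% of all listed transcripts, and 48.5% of all were higher. The markers' rows too were selected on this contrast, so nothing is read from these counts. Each of the 5 has an adjusted p of 0.8885 in the authors' deposited table. Acta2 ENSMUST00000039631, of smooth muscle actin, had means of 7.001 ± 1.324 FPKM in knockouts and 3.46 ± 1.42 FPKM in controls, and Tagln ENSMUST00000216035, also of smooth muscle, 0.531 ± 0.278 and 0.118 ± 0.0529 FPKM (SD, n = 4 each). Mag ENSMUST00000040548, of myelin, had means of 1.46 ± 0.883 FPKM in knockouts and 2.69 ± 0.197 FPKM in controls (SD, n = 4 each). The summed level of the 5 was between 11.1 and 14.7 FPKM in the knockouts and between 5.80 and 29.7 FPKM in the controls. Csf1r ENSMUST00000025523, a microglial receptor, reached 21.3 FPKM in control replicate 1, with at most 2.53 FPKM in the other controls. Col1a2 was listed at 0 in control replicates 2 and 3, and none of the 5 was at 0 in a whole group.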

How the data were processed

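Hippocampal RNA-seq of 4 wild-type and 4 Jade2 knockout samples was compared. Per the labels' protocols, libraries were made from Trizol-extracted total RNA with a NEBNext Ultra kit. The submitters' processing notes name HISAT2, Cuffdiff and the mm10 build, without versions. The authors deposited abundances without naming the unit, which is read here as FPKM from the use of Cuffdiff. The authors also deposited a log2 fold change and p-values per transcript, by a test these sources do not name.

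The deposited rows were selected by the authors, and each has an unadjusted p under 0.05 and a log2 fold change of 1 or more in size. Transcripts averaging 1 FPKM or more were fitted with limma 3.58.1 in R 4.3.3 on log2(FPKM + 0.5), with a variance trend, two-sided, over the whole table, and adjusted over 104721 transcripts by the Benjamini-Hochberg method. Log2 differences on this scale understate changes of low transcripts. Locus sums were compared by exact permutation over 70 assignments. Annotation came from GENCODE M21 (GRCm38) and promoters from RefSeq. Python 3.11.15 was used.

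The members and lists were chosen with earlier results of these data known. Transcripts given in every library are those at loci with both directions, those with an authors' adjusted p under 0.05, the 8 in each direction with the smallest authors' p, the 6 most abundant, and all of Zfhx, Zeb and Klf. Alternatives were 2 pseudocounts, other minimum levels, scaling, a replicate block, other limma settings and each library left out. A planned count of zinc fingers per protein was not made, as no protein table was used here.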

Additional observations from a re-analysis of the deposited data

Results flagged for a closer look

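A library lay far from the other 3 of its group, by the ratio of its gap to the range against Dixon's critical value, in 19 of 68 groups of 4 values for zinc finger transcripts and locus sums. Chance flags about 1 in 20 groups of independent, normally distributed values, which these are not: in 3 of the 19 the other libraries were all at 0, and 3 are sums that hold transcripts examined singly as well, so the 19 cannot be read against that share. By library the flags fell 5 times on knockout replicate 1, 4 times each on knockout replicates 3 and 4, 3 times on control replicate 2, once each on control replicates 1, 3 and 4, and 0 times on knockout replicate 2.

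Knockout replicate 1 was low for Zfhx4 ENSMUST00000026284 and for the Zfhx4 sum, at 0.161 FPKM against 2.24 to 2.48 FPKM in the other knockouts. It was high for MERGE.20971.11 of Zfp638, at 2.18 FPKM against 0, for the Zfp638 sum, at 2.78 FPKM against 0.457 to 0.733 FPKM, and for Zfp219 ENSMUST00000228580, at 0.168 FPKM against 0. Knockout replicate 3 was low for Zfp28 ENSMUST00000207086 (0.247 FPKM) and high for Zfp467 (0.416 FPKM), Zfp853 (1.21 FPKM) and Zfp961 (2.01 FPKM). Knockout replicate 4 was high for Zfp219 ENSMUST00000067549 (1.97 FPKM) and ENSMUST00000226522 (9.45 FPKM), for the Zfp219 sum (12.2 FPKM) and for Zfp414 (4.10 FPKM).

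Among the controls, replicate 2 was high for Zfp219 ENSMUST00000067549 (0.0046 FPKM against 0), Zfp935 (4.60 FPKM) and Zfp941 (1.60 FPKM). Replicate 1 was high for Zfp219 ENSMUST00000226522 (2.13 FPKM), replicate 3 high for Zscan29 (1.59 FPKM) and replicate 4 low for Zfp287 (0.524 FPKM).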

How the results depend on the processing

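Low levels, with no counts, limit every value here. With no minimum level, limma called 1 zinc finger transcript, Zfhx4 ENSMUST00000176383, and 27 of 31 had an unadjusted p under 0.05 (73.3% of all listed). With a mean of at least 5 FPKM 1 transcript was tested and had an unadjusted p under 0.05 (74.6% of all tested). Limma called 0 with every other setting, and with each library left out, when between 3 and 8 of 10 to 13 tested had an unadjusted p under 0.05 (51.8% to 56.6% of all tested), the fewest without control replicate 3 (3) and control replicate 1 (5). Where the mean reached 1 FPKM the groups were apart for 0 higher and 1 lower transcripts (17.3% and 14.4% of all such). With each library left out they were apart for 6 to 10 higher and 7 to 11 lower ones (22.8% to 26.4% and 19.6% to 23.4% of all listed).

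Locus sums changed with single libraries. The log2 difference ran from -0.515 to 0.21 for Zfhx4, positive without knockout replicate 1. It ran from -0.609 to 0.337 for Zfp219, positive without knockout replicates 1 (0.088), 2 (0.337) or 3 (0.023) or control replicates 1 (0.019), 3 (0.008) or 4 (0.063). For Zfp638 it ran from -0.452 to 0.222, positive without knockout replicates 2 (0.129), 3 (0.018) or 4 (0.14) or control replicates 2 (0.166) or 4 (0.222). For Zfp639 it ran from -1.285 to -0.82, and its exact permutation p was 0.0286 without control replicate 4. The cause was not tested.

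The replicate numbers are not known to pair libraries: deviations of same-numbered libraries correlated between -0.03 and 0.036. With a replicate block 6 of 10 transcripts had an unadjusted p under 0.05 (61.1% of all tested) and 0 were called, and the Zfp639 sum had an exact sign-flip p of 0.25, where 0.125 is the smallest possible. Of the log2 differences of the 31 transcripts, 24 moved by more than the replicate spread with a pseudocount of 0.1 and 4 with a pseudocount of 1, and none changed sign under these or with a library left out.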
